A study of Homo sapiens with 78 samples.

Results

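Tetraspanins are small membrane proteins that span the membrane several times and gather other proteins, such as integrins, into clusters on the cell surface and on endosomal vesicles. Most family members are made in many tissues, whereas CD37 and CD53 are known mainly from leukocytes. The 9 tetraspanin genes described here form a list of gene names, drawn up with earlier results of these data known. CD37 and CD53 formed the leukocyte-restricted pair, and CD9, CD63, CD81, CD82, CD151, TSPAN3 and TSPAN4 were the 7 broadly expressed members. The files held 9 of 9 members, and the family list used here had 33 genes in all, the members included, of the 58388 genes in the files. The question was how the leukocyte-restricted and the broad members were distributed between the cell lines, with either reagent kit.

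Single A375 and Jurkat cells were sorted by FACS into tubes, 1 cell in each, here called a well. A375 is a human melanoma cell line grown attached to plastic, and Jurkat is a human T cell leukemia line grown in suspension. Sequencing libraries of total RNA were prepared with Pico Input reagents of the SMARTer Stranded line (kit #634413) or with SMART-Seq Stranded reagents (kit #634444), giving 21 A375 wells and 18 Jurkat wells for each kit. The labels name no drug treatment and no engineered allele in any group. A375 cells had been stained with an antibody against CD47 and sorted in PBS. Jurkat cells had been stained with an antibody against CD81, 1 of the members described here, and sorted in lysis solution. The sources used here do not say whether the stains were gated on. Cell line, medium, stain and sort buffer therefore cannot be told apart.

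Each well held 909 to 2567265 estimated counts. The 11 wells with fewer than 100000 counts on protein-coding genes were all A375 wells, and they reached at most 31670 such counts, whereas the other 67 wells had at least 222613. The shallow wells held 0.195% of all protein-coding counts and hardly entered the sums below. Values of single wells are given for the 67 deeper wells, that is 15 and 16 A375 wells (kits #634413 and #634444) and 18 Jurkat wells for each kit. No label names separate cultures, so a cell line with a kit was treated as 1 sample, and no test or p-value is given. The size rule used instead was a ratio of at least 2 between the summed counts in both kits. Intervals are exact 95% Poisson intervals for sums and exact binomial intervals for shares of wells. The Poisson intervals cover the counting of reads only. Reads without molecular identifiers are not independent molecules, so these intervals can be too narrow. The binomial intervals take wells as independent draws. Neither kind covers variation between cultures.

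The labels were checked against marker genes. The T cell markers CD3D and CD3E had 0 counts in A375, and CD3E reached 399 and 437 counts for each 1000000 protein-coding counts (CPM) in Jurkat with kits #634413 and #634444. All 10 T cell markers were above 5 CPM in Jurkat with either kit. In A375, 5 and 4 of the 10 had 0 counts, and 0 and 1 were above 5 CPM. The highest there were CD3G at 4.41 CPM with kit #634413 and PTPRC at 8.43 CPM with kit #634444. SOX10, a transcription factor of the melanocyte lineage, was at 421 and 406 CPM in A375 and at 0 and 0.574 CPM in Jurkat. The pigment genes were low in A375, with TYR at 0.481 and 0.764 CPM and DCT at 1.36 and 0.764 CPM. PMEL was at 5.78 and 0.0955 CPM in A375. MLANA was at 1.52 and 0.672 CPM in A375 and at 0 and 1.53 CPM in Jurkat. The B cell marker MS4A1 had 0 counts in Jurkat, while CD79A was at 4.40 and 16.9 CPM.

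The members lie on 5 chromosomes (GENCODE v44, GRCh38). CD53 occupies chromosome 1 (110871188 to 110899922, plus strand) and CD37 chromosome 19 (49335171 to 49343335, plus strand). Chromosome 11 holds CD151 (832887 to 839831, plus), its neighbour TSPAN4 (842812 to 867116, plus), CD81 (2376177 to 2397802, plus) and CD82 (44564427 to 44620358, plus). CD9 (6199715 to 6238271, plus) and CD63 (55725323 to 55729707, minus) lie on chromosome 12, and TSPAN3 (77041404 to 77083984, minus) on chromosome 15. RefSeq promoter sequences (GRCh38.p14) were matched for 5 of 9 members. CD37 was not among them, so CD53 alone stands for the leukocyte-restricted pair. The sequences of CD53 and of the broad CD63 are printed because they differ clearly in base composition. A pair chosen in this way does not describe the 2 classes. The sequences below are the 250 bases before the start site nearest to the 5′ end of each gene's most abundant transcript, read 5′ to 3′ on the gene's strand, with each CG dinucleotide in capitals.
CD53 promoter, chr1:110872898-110873147, plus strand: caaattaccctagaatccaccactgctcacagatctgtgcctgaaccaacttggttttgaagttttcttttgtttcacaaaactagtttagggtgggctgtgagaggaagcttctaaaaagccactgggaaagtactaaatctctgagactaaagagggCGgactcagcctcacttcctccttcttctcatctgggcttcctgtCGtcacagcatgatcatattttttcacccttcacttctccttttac
CD63 promoter, chr12:55729010-55729259, minus strand: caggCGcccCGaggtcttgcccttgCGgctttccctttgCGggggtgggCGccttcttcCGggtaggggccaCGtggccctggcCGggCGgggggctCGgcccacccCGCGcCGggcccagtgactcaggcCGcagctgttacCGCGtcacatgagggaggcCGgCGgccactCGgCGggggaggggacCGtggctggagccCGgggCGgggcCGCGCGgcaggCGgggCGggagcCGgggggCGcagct
The CD53 promoter held 2 CG dinucleotides and 44% G and C, and the CD63 promoter held 30 and 79.2%. The median over all 35116 promoters was 11 CG dinucleotides in the same 250 bases, and 22.9% of promoters had as few as CD53 or fewer. In the other matched members, CD9 had 28 CG dinucleotides, CD82 had 26 and TSPAN4 had 37. CD82, which was found mainly in Jurkat, thus had a count close to that of CD63. The 250 bases of CD9, CD82 and TSPAN4 overlapped an annotated untranslated region by 73, 62 and 40 bases, against 0 for CD53 and CD63. The stretches of CD53, CD63, CD9 and CD82 nevertheless lay wholly within the annotated spans of their genes, downstream of the first annotated start. The CG counts describe the sequence and were not set against any measure of binding or methylation.

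Of the 9 members, 8 had at least 50 summed counts in at least 1 of the 4 groups and entered the comparison. In it, 4 of 8 members (CD9, CD63, CD151 and TSPAN3) were at least 2-fold higher in A375 with both kits, against 26.8% of the 16814 genes tested. A further 3 of 8 (CD53, CD81 and CD82) were at least 2-fold higher in Jurkat with both kits, against 14% of all genes. TSPAN4 met neither rule, and CD37 did not reach the count minimum. Over all genes tested, the median log2 ratio of A375 to Jurkat was 0.27 with kit #634413 and 0.24 with kit #634444. Relative to this median, the smallest difference of a called member in each direction was −1.32 for CD81 and 1.5 for TSPAN3, both with kit #634444. Taken by class, the leukocyte-restricted pair split into 1 gene found in Jurkat and 1 gene hardly found in either line, while the broad members held genes of both directions. On the scale of log2(TPM + 1), the mean or median over wells gave smaller ratios for the 3 genes close to 0 in 1 line, with 4.51 to 6.05 for CD9, −5.25 to −5.04 for CD53 and −5.78 to −5.01 for CD82.

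CD53, a leukocyte tetraspanin of lymphocytes and myeloid cells, was detected in Jurkat only. Over 18 Jurkat wells its level was between 0 and 133 TPM (a length-scaled share of the transcripts of a well), with a median of 33.6, for kit #634413, and between 0 and 95.2 TPM, with a median of 31.8, for kit #634444. The summed level was 58.4 CPM (95% interval 54.3 to 62.6) and 73.0 CPM (67.9 to 78.4). In A375, CD53 had 0 counts in all 42 wells, where 3 counts would have given 0.241 and 0.287 CPM. The difference was thus at least 242-fold with kit #634413 and at least 255-fold with kit #634444. CD53 had a count in 32 of 36 Jurkat wells (88.9%, 73.9 to 96.9%). Among the deeper A375 wells it had a count in 0 of 31 (exact interval 0 to 11.2%). The 4 Jurkat wells without CD53 kept the groups from being fully separate. These wells were not shallow, with 384020 to 1066297 protein-coding counts, and they contained CD3E at 179 to 397 CPM.

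CD37, the other leukocyte-restricted member, is best known from mature B cells. It had 0 counts in Jurkat with kit #634413, where 3 counts would have been 0.228 CPM, and 5 counts in 2 of 18 wells with kit #634444 (0.479 CPM, 0.155 to 1.12). In A375 it had 1 count with each kit, or 0.0802 and 0.0955 CPM. Kallisto assigned all of these counts to CD37-212, a transcript annotated as a retained intron. The highest level of CD37 in any well was 1.28 TPM. No fold was computed with kit #634413, and with kit #634444 the log2 ratio of A375 to Jurkat was −2.32 with an interval that contained 0 (−7.89 to 0.84). CD37 was therefore close to the limit of these libraries in both lines, and the leukocyte label did not describe its level in Jurkat.

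CD82, known as KAI1 and as a suppressor of metastasis, had the most one-sided distribution of the broad members toward Jurkat. Its level over Jurkat wells was between 0 and 155 TPM, with a median of 37.3, for kit #634413. With kit #634444 the wells spanned 4.73 to 196 TPM with a median of 53.8. The sums were 68.4 CPM (64.1 to 73.1) and 123 CPM (116 to 129.8). In A375, CD82 had 6.03 counts in 3 of 15 wells and 4 counts in 1 of 16 wells, or 0.484 and 0.382 CPM, and no A375 well reached 5 counts. The log2 ratio of A375 to Jurkat was −7.14 (−8.60 to −6.02) and −8.33 (−10.21 to −6.97). Without replicate 17 of A375 with kit #634413, fewer than 3 counts remained in that group. The first ratio was then at most −7.93, with A375 set to 3 counts. Well ranges overlapped with both kits. With kit #634413, 4 of 18 Jurkat wells had no count of CD82, and with kit #634444 the highest A375 well, at 9.16 TPM, lay above the lowest Jurkat well. No Jurkat well lacked both CD53 and CD82: 36 of 36 wells had a count of at least 1 of them (90.3 to 100%), and 28 had both, against 4 and 0 of 31 A375 wells.

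CD81, a tetraspanin found on lymphocytes and on many other cells, was present in both lines. A375 wells ranged from 5.2 to 112 TPM, with a median of 24.1 (kit #634413), and from 0 to 93.9 TPM, with a median of 36.6 (kit #634444). Jurkat wells ranged from 11.5 to 442 TPM around a median of 69.2, and from 0.721 to 158 TPM around a median of 62.1. The ranges overlapped widely for both kits. In summed counts, CD81 was at 57.5 CPM (53.4 to 61.9) and 66.2 CPM (61.4 to 71.3) in A375 and at 139.9 CPM (134 to 146) and 139.6 CPM (133 to 147) in Jurkat. Jurkat was thus 2.43-fold and 2.11-fold higher, the smallest of the 7 differences. With kit #634444 the log2 ratio of −1.08 fell under 2-fold with mean or median TPM of the deeper wells (−0.62 and −0.75) and with protein-coding transcripts alone (−0.92). The median TPM over all wells, the shallow A375 wells included, gave −0.97. CD81 is also the antigen that Jurkat cells were stained for, and its part in this difference was not tested.

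CD9, a tetraspanin of platelets, epithelia and many tumour cells that is required on the egg for fertilization, was found in every deeper A375 well. The A375 wells lay between 7.32 and 149.6 TPM, with a median of 54.0, for kit #634413, and between 14.5 and 117 TPM, with a median of 28.6, for kit #634444. In Jurkat, CD9 had 0 counts with kit #634413 and 4 counts in a single well, at 5.49 TPM, with kit #634444. CD9 was the only member in which all A375 wells lay above all Jurkat wells with both kits, a pattern that 0.850% of the genes tested showed. No member had all Jurkat wells above all A375 wells with both kits (0.291% of all genes). The sums were 112 CPM (106 to 118) and 60.9 CPM (56.2 to 65.8) in A375. They exceeded Jurkat at least 492-fold with kit #634413 and 159-fold with kit #634444 (log2 ratio 7.31, 5.95 to 9.19).

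CD63, a tetraspanin of late endosomes, lysosomes and exosomes, was the member with the highest median TPM in A375. A375 wells had 18.3 to 521 TPM (median 107) with kit #634413 and 10.1 to 299.5 TPM (median 109) with kit #634444. Jurkat wells had 0 to 93.4 TPM (median 3.25) and 0 to 52.3 TPM (median 9.43). All A375 wells had counts, while 22 of 36 Jurkat wells did, and the highest Jurkat wells reached the range of A375. The summed levels were 188 CPM (180.4 to 196) and 179 CPM (171 to 187) in A375, and 20.3 CPM (17.9 to 22.8) and 23.3 CPM (20.4 to 26.4) in Jurkat. The log2 ratio was 3.21 (3.03 to 3.40) and 2.94 (2.75 to 3.14), or 9.27-fold and 7.69-fold. With mean or median TPM it lay between 2.30 and 4.67 for kit #634413 and between 2.32 and 3.40 for kit #634444, a wider range than that of the counting intervals.

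CD63 and CD81 changed places between the lines. CD63 exceeded CD81 by TPM in 27 of 31 A375 wells (87.1%, 70.2 to 96.4%), and CD81 exceeded CD63 in 34 of 36 Jurkat wells (94.4%, 81.3 to 99.3%). These comparisons were made within wells, so they do not depend on how wells were scaled to each other.

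CD151, a close partner of laminin-binding integrins, was detected in 30 of 31 A375 wells and in 12 of 36 Jurkat wells. Levels in A375 were 0 to 97.3 TPM (median 41.9) with kit #634413 and 8.19 to 143 TPM (median 28.4) with kit #634444. The median over Jurkat wells was 0 with both kits, with highest wells at 82.6 and 11.2 TPM. In sums, CD151 was at 66.9 CPM (62.4 to 71.5) and 47.0 CPM (42.9 to 51.4) in A375. In Jurkat it was at 8.95 CPM (7.41 to 10.7) and 3.64 CPM (2.57 to 4.99). Replicate 3 of Jurkat with kit #634413 alone held 79 of the 118 counts of its group, and without it the group was at 3.08 CPM. The log2 ratio was 2.90 (2.62 to 3.19) with kit #634413, or 4.44 without that well, and 3.69 (3.21 to 4.21) with kit #634444. Mean and median TPM put it between 1.76 and 5.42 for the former kit and between 3.25 and 4.88 for the latter.

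TSPAN3, a widely expressed tetraspanin, was detected in all deeper A375 wells and in 32 of 36 Jurkat wells. A375 wells ranged from 31.5 to 193 TPM (median 62.6) with kit #634413 and from 10.2 to 112 TPM (median 63.2) with kit #634444. Jurkat wells ranged from 0 to 88.1 TPM (median 4.90) and from 0.156 to 119.6 TPM (median 23.7), and thus overlapped A375. The sums were 197 CPM (189.6 to 205) and 174 CPM (166 to 182) in A375, and 39.3 CPM (36.0 to 42.8) and 52.2 CPM (48.0 to 56.8) in Jurkat. The ratio was 5.02-fold with kit #634413 and 3.33-fold with kit #634444. With kit #634444, the log2 ratio of 1.74 became 1.19 with mean TPM and 1.38 with median TPM of the deeper wells. When the shallow A375 wells were given the same weight as the others, these values were 0.80 and 0.87, both under 2-fold. With kit #634413, the log2 ratio of 2.33 lay between 1.89 and 3.43 with mean or median TPM.

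TSPAN4, a tetraspanin known from migrasomes, the vesicles left behind by migrating cells, was low and patchy. It had counts in 20 of 31 A375 wells and 10 of 36 Jurkat wells. The median over A375 wells was 1.73 and 7.60 TPM and that over Jurkat wells was 0 with both kits, but single Jurkat wells reached 123 and 65.4 TPM. In sums, TSPAN4 was at 17.7 CPM (15.5 to 20.2) and 15.9 CPM (13.5 to 18.5) in A375, and at 16.8 CPM (14.7 to 19.2) and 7.75 CPM (6.16 to 9.64) in Jurkat. The log2 ratio was 0.07 (−0.20 to 0.35) with kit #634413, and 1.03 (0.64 to 1.43) with kit #634444. The sign with kit #634413 turned with TMM scaling (−0.10), all estimated counts as the denominator (−0.0077), protein-coding transcripts (−0.12), mean TPM (−0.56 over all wells and −0.13 over the deeper wells) and without replicate 14 of A375 (−0.27). Replicate 5 of Jurkat with kit #634413 held 100 of 222 counts, and without it the log2 ratio with that kit was 0.87. Replicate 10 of Jurkat with kit #634444 held 40 of 81 counts, and without it the log2 ratio was 1.94. By the median TPM of the deeper wells, TSPAN4 was more than 2-fold higher in A375 with both kits (log2 1.45 and 3.10).

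**Figure D1:**
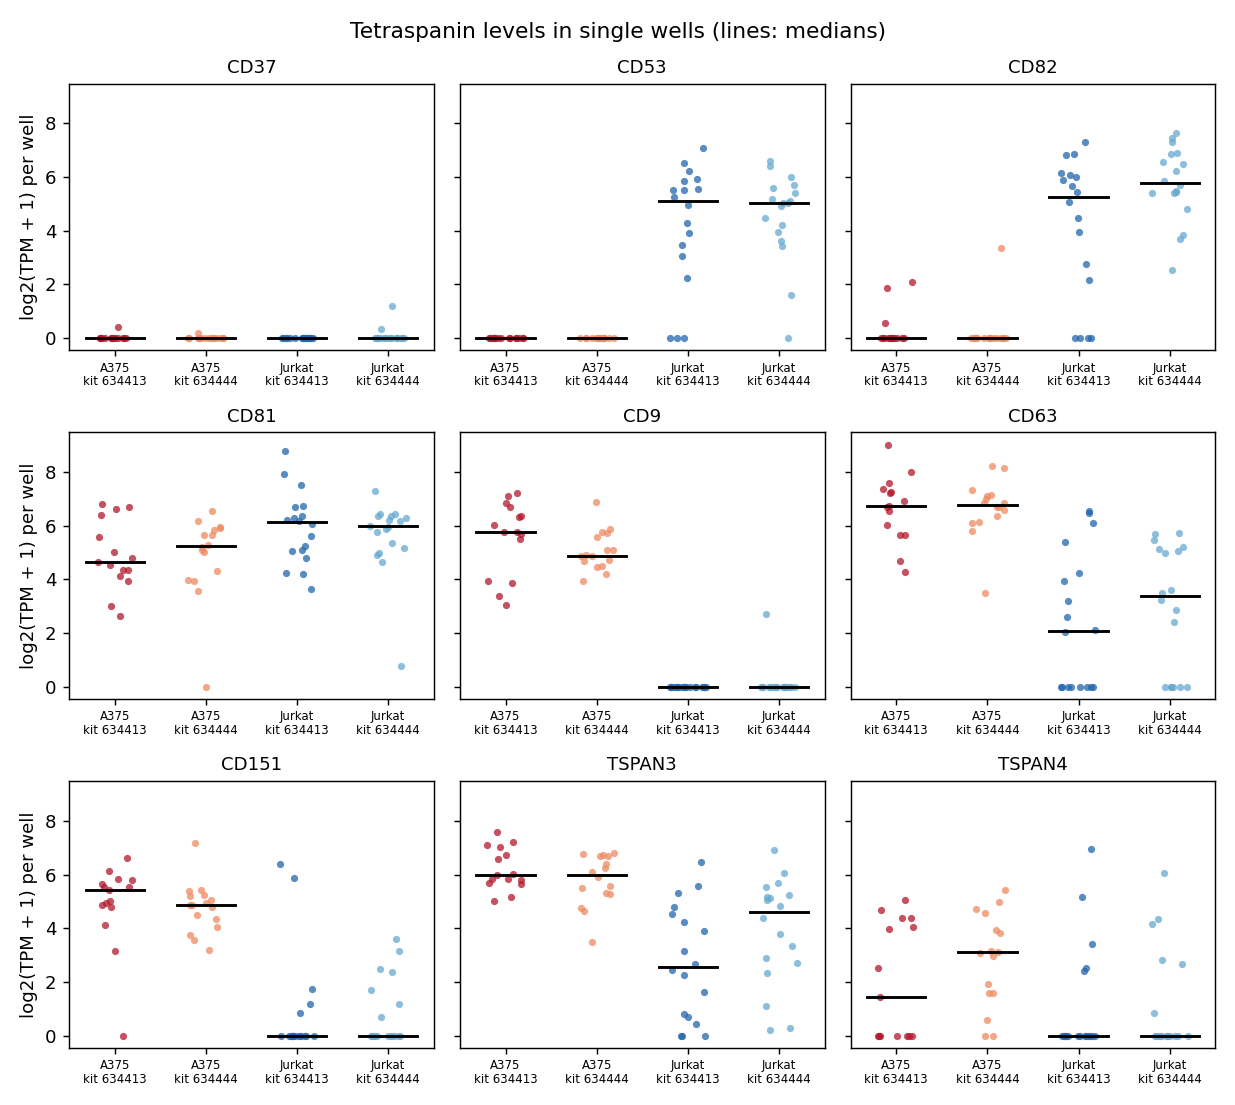
Level of each tetraspanin in each of the 67 deeper wells as log2(TPM + 1) on the y axis, by cell line and kit on the x axis, with black lines for medians and points spread sideways to be seen. CD53 and CD82 have points well above 0 mainly in Jurkat, CD9 mainly in A375, CD81 in both lines, and CD37 stays at or near 0 in all groups.

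**Figure D2:**
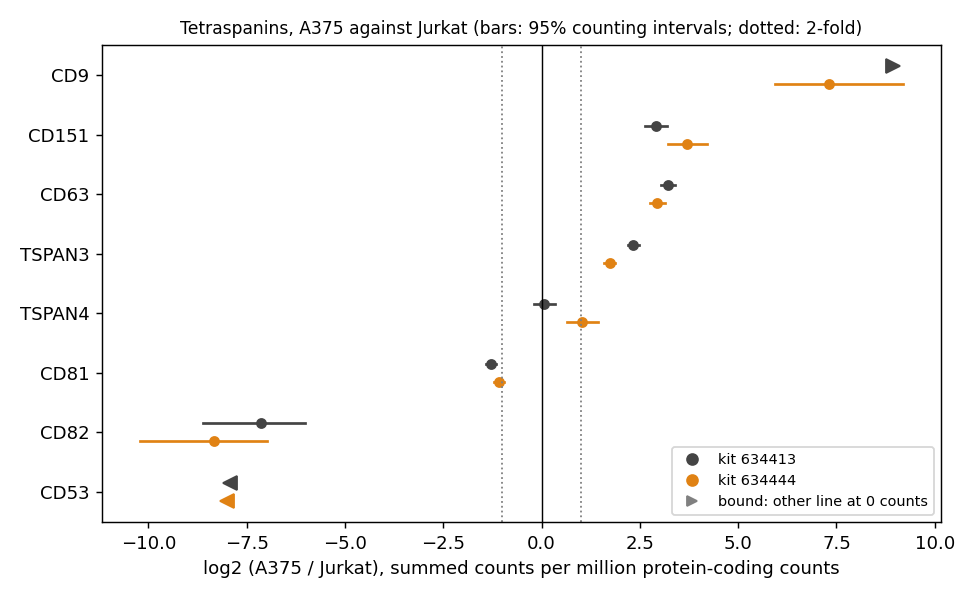
Log2 ratio of A375 to Jurkat of the summed CPM for the 8 members tested, with a point for each kit, bars for 95% counting intervals and dotted lines at 2-fold. Triangles mark bounds where the other line had 0 counts (CD9 with kit #634413, and CD53 with both kits), and TSPAN4 is the only member near 0 with kit #634413.

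Within each line, the order of the members was read from median TPM, which takes transcript length into account. In A375 the order with kit #634413 was CD63, TSPAN3, CD9, CD151, CD81 and TSPAN4, and with kit #634444 it was CD63, TSPAN3, CD81, CD9, CD151 and TSPAN4. The interquartile ranges of neighbours in this order overlapped from CD63 down to the fifth place with both kits. TSPAN4 stood apart from the fifth member, and CD82, CD37 and CD53 had medians of 0. In Jurkat the order was CD81, CD82, CD53, TSPAN3 and CD63 with both kits, followed by TSPAN4, CD151, CD9 and CD37 with medians of 0. The interquartile ranges of all neighbours in Jurkat overlapped, so neighbouring places were not distinguished.

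As shares of the mean TPM of the 9 members, CD63 made up 36.3% and 39.5% in A375 (kits #634413 and #634444), followed by TSPAN3 with 22.3% and 20.9% and CD9 with 17.2% and 12.1%. In Jurkat, CD81 made up 40.8% and 27.3%, CD82 19.8% and 33.3%, and CD53 16.4% and 15.3%. By mean TPM, CD82 and CD81 thus traded the first place between the kits, whereas by median TPM CD81 was first with both. With kit #634444, CD81 and CD82 were each the highest member in 8 of 18 Jurkat wells. The highest member of a well was CD63 or TSPAN3 in 25 of 31 A375 wells, and CD81, CD82 or CD53 in 33 of 36 Jurkat wells. The share that CD37 and CD53 took of the members' TPM in a well was 20.2% ± 20.7 (SD, n = 18 wells) and 14% ± 9.23 (SD, n = 18 wells) in Jurkat, with single wells from 0 to 75.3% and from 0 to 38.6%. In A375 the highest share in any well was 0.0883%.

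**Figure D3:**
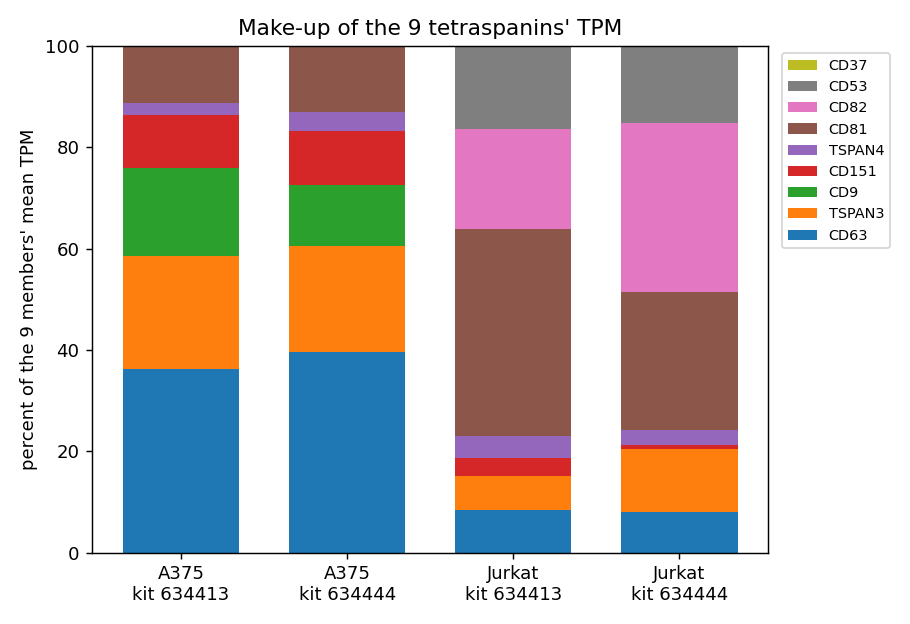
Share of each member in the 9 members' mean TPM (y axis, percent) over the deeper wells of each cell line and kit (x axis). CD63, TSPAN3 and CD9 fill most of the A375 bars, and CD81, CD82 and CD53 most of the Jurkat bars; CD37 is too small to be seen.

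A typical well held counts of only part of the members. The median number of members with a count was 6 of 9 in A375 and 5 of 9 in Jurkat with both kits, with wells from 3 to 7. The variation between wells was larger than the counting of reads alone would give. Amplified reads without molecular identifiers exceed that measure in any case, so the excess does not measure differences between cells. For CD63 in A375 the coefficient of variation of CPM over wells was 80.5% and 64.1%, where counting error alone gave 9.34% and 10.6%. TSPAN3 varied least in A375, at 49.3% and 37.0%. In Jurkat, CD81 varied by 51.1% and 59.1%, CD53 by 88.1% and 79.5%, and CD82 by 111% and 80.3%. CD151 and TSPAN4 had coefficients above 180% in Jurkat, at 317% and 182% and at 266% and 214%.

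Detection was also computed at equal depth. If each deeper well were reduced to 100000 protein-coding counts, CD53 would be expected in 78% of Jurkat wells with kit #634413 and 89.6% with kit #634444, instead of 83.3% and 94.4%. For CD63 in Jurkat the expected shares were 46.1% and 59.6% instead of 55.6% and 66.7%. In A375, CD63 and TSPAN3 would still be expected in 98.6% to 100% of wells at that depth. The line difference in detection of CD63 was also present at equal depth.

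Among wells of the same line, rank correlations between members were low at the median. Over 10 pairs of CD63, CD9, CD151, CD81 and TSPAN3 in 31 A375 wells, Spearman's rho of log2(CPM + 1) lay between −0.31 and 0.28 with a median of 0.03. Over 15 pairs of CD53, CD81, CD82, CD63, TSPAN3 and the further family gene TSPAN7 in 36 Jurkat wells, it lay between −0.45 and 0.32. The median was 0.03, and the lowest value was that of CD81 with TSPAN3. The wells of both kits were combined, and the pairs share libraries and depth. Wells without a count are tied in rank, as for CD63, which had counts in 22 of 36 Jurkat wells. Low values therefore do not show that the levels are unrelated.

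Across all 67 deeper wells of both lines, the genes most like each member were found by Spearman's rho among 10988 protein-coding genes. They mostly followed the difference between the lines. CD53 was most like CD3E (0.86) and DENND1C (0.85), and CD82 was most like LCP1 (0.83) and CD7 (0.80). CD9 was most like KRT18 (0.93) and TIMP3 (0.92), and CD63 was most like MYOF (0.84) and MET (0.83). CD151 was most like RASAL2 (0.79) and NIBAN1 (0.78), and TSPAN3 was most like DMRTA1 and HIP1 (both 0.81). For CD81 the highest values were 0.62 (ABCE1) and 0.60 (TFDP2), for TSPAN4 0.58 (IFIT5) and 0.57 (FAM83G), and for CD37, which rests on 7 counts, 0.38 (AP5S1) and 0.36 (USP6).

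The kits were compared within each line. In A375, 0 of 8 members differed by 2-fold or more between the kits, against 20.1% of all genes tested in either direction. Not all 8 could be compared there. CD53 had 0 counts with both kits, so its ratio was set by the floor of 3 counts. CD82 had 6.03 and 4 counts (kits #634413 and #634444). CD9 came closest, with 112 CPM for kit #634413 and 60.9 CPM for kit #634444 (1.84-fold, log2 −0.88, −1.02 to −0.74). In Jurkat, 2 of 8 members passed 2-fold, against 29.4% of all genes. They were CD151, 2.46-fold higher with kit #634413, and TSPAN4, 2.17-fold higher with the same kit. CD9 could hardly be compared in Jurkat, with 0 counts for kit #634413 and 4 for kit #634444. Which members passed depended on the measure. By mean TPM only CD151 passed, and by median TPM CD63 and TSPAN3 did in Jurkat and TSPAN4 in A375. With protein-coding transcripts alone, CD53 and TSPAN4 passed in Jurkat. The difference of CD151 fell under 2-fold without replicate 3 or without replicate 17 of kit #634413. That of TSPAN4 did so without replicate 5 or replicate 7 of kit #634413 and without replicate 2 or replicate 16 of kit #634444. CD81 was at nearly the same summed level with both kits in Jurkat (ratio of kit #634444 to kit #634413 0.998, log2 interval −0.10 to 0.10), and CD82 was 1.80-fold higher with kit #634444. The difference of CD82 passed 2-fold without replicate 7 or replicate 12 of kit #634413.

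Transcript assignments, which Kallisto estimates and which are uncertain where isoforms share most of their sequence, differed in part between the lines. CD63-201 held 62.7% of the 4215 CD63 counts in A375 and 12.2% of the 510 counts in Jurkat, where CD63-212 led with 31.2%. CD81-201 led in both lines, with 45.6% in A375 and 55.9% in Jurkat. CD9-201 held 54.5% of the CD9 counts in A375. In Jurkat, the coding transcript CD53-201 held 55.8% of CD53 and CD53-205, for which no coding sequence is defined, held 26.9%. For CD82 in Jurkat, CD82-202 held 32.8% and CD82-213, also without a defined coding sequence, held 26.3%. In TSPAN3, TSPAN3-210 led in A375 (28.2%) and TSPAN3-207 in Jurkat (35.1%). Most of these transcripts were found in only some wells, for example CD63-212 in 5 of 36 Jurkat wells.

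The other 24 genes of the family were described by the same rule. Of these, 14 were tested, 6 were at least 2-fold higher in A375 with both kits, 5 in Jurkat with both kits, and 3 in neither, beside 26.8% and 14% of all genes tested in the same directions. TSPAN11, 1 of the 6, fell under the count minimum without replicate 5, 17 or 19 of A375 with kit #634413. The median log2 ratio of the 14 was 1.05 and −0.02, beside 1.20 and 1.38 for the 8 members. TSPAN7, known as the T cell acute lymphoblastic leukemia antigen TALLA-1, was the most abundant of the 33 family genes in Jurkat by mean TPM with kit #634444 and second to CD81 with kit #634413. It was found in 36 of 36 Jurkat wells, from 1.42 to 135 TPM (median 69.2) and from 26.8 to 239 TPM (median 79.5). In A375, TSPAN7 had 0 counts with kit #634413 and 22 counts in 1 well with kit #634444. In that well it reached 26.3 TPM. TSPAN7 exceeded CD81 by TPM in 10 of 18 and 13 of 18 Jurkat wells.

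Among the others higher in Jurkat, TSPAN5 was at 30.4 and 45.3 CPM against 11 and 3.64 CPM in A375. TSPAN33 was at 33.8 and 14.8 CPM against 6.34 and 5.64 CPM. Of its 79 counts in A375 with kit #634413, 78 lay in replicate 14, without which the level was 0.0917 CPM, and 200 of 445 counts in Jurkat with that kit lay in replicate 12, without which the log2 ratio was −1.66 in place of −2.41. TSPAN15 and TSPAN2 had at most 14.5 CPM, and the highest of these, of TSPAN15, was 7.94 CPM without replicate 1. Among those higher in A375, TSPAN13 was at 51.2 and 54.1 CPM against 0.911 and 9.19 CPM in Jurkat, and TSPAN31 at 34.7 and 21.9 CPM against 1.99 and 2.58 CPM. TSPAN6 was at 21.6 and 28.7 CPM against 0 and 1.63 CPM, and TSPAN12 at 9.07 and 11.9 CPM against 0 counts. TSPAN9 was at 11.3 and 13 CPM in A375, and TSPAN11 stayed under 5 CPM. TSPAN14 was shared, with 156 and 115 CPM in A375 and 94.4 and 67.9 CPM in Jurkat, and TSPAN17 was also within 2-fold. TSPAN10 pointed to A375 with kit #634413 (log2 1.38, or 0.70 without replicate 11 of A375) and to Jurkat with kit #634444 (log2 −1.34). Single wells also held most of the few counts on the low side of other genes. In Jurkat, TSPAN6 with kit #634444 was at 0.101 CPM without replicate 5, TSPAN31 at 0.333 and 1.42 CPM without replicates 8 and 7, and TSPAN13 with kit #634413 at 0.578 CPM without replicate 11. TSPAN12 in A375 with kit #634444 was at 6.40 CPM without replicate 14. The 9 members held 76.2% and 78.3% of the family's mean TPM in A375 and 62.9% and 61.6% in Jurkat.

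**Figure D4:**
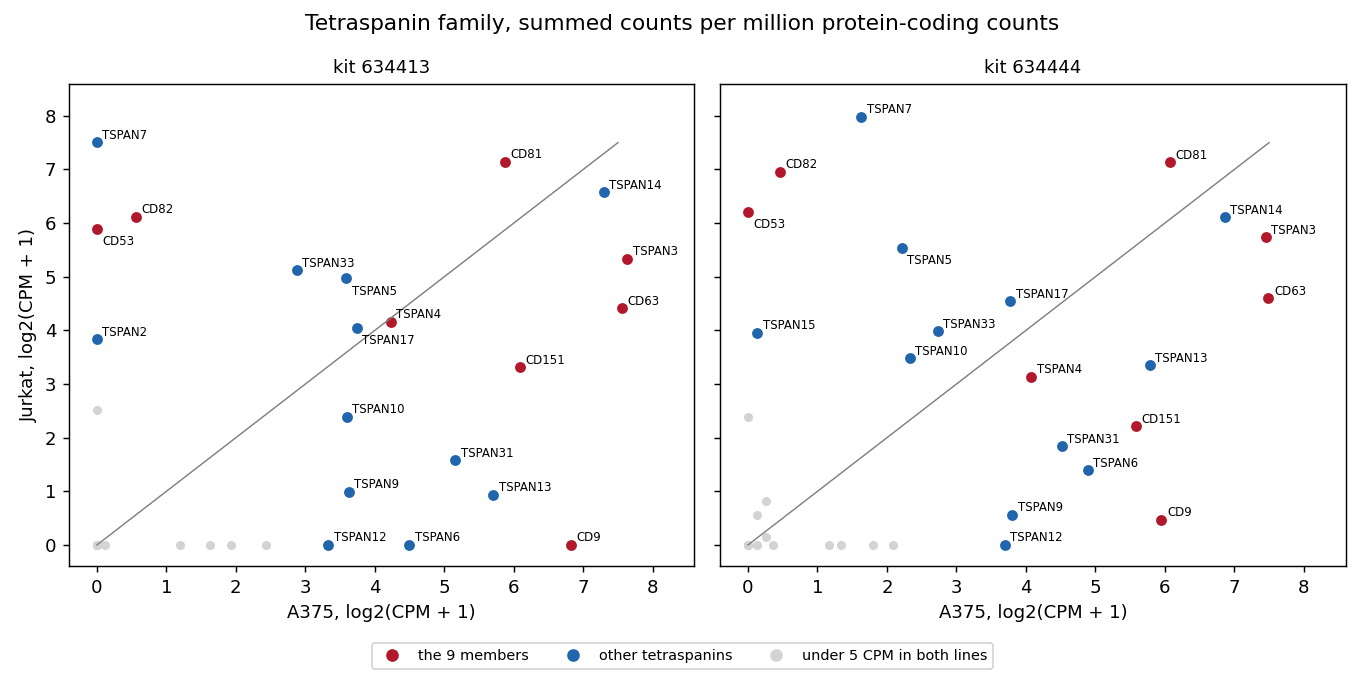
Summed level of the 33 tetraspanin genes in A375 (x axis) and Jurkat (y axis) as log2(CPM + 1), with a panel for each kit and a line of equal levels. Among genes with at least 5 CPM in 1 of the lines, points are red for members and blue for other family genes. Grey points are genes under 5 CPM in both lines, the member CD37 included. TSPAN7, CD53 and CD82 lie near the y axis, CD9, TSPAN6 and TSPAN12 near the x axis, and TSPAN14 close to the line.

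Of 16 partner genes of tetraspanins, 15 were tested. Of these, 6 were at least 2-fold higher in A375 with both kits, 5 in Jurkat, and 4 in neither, beside 26.8% and 14% of all genes tested, with a median log2 ratio of 0.40 and 0.50. Without replicate 2 of Jurkat with kit #634444, IFITM1 was no longer among the 5 (log2 −0.81 in place of −1.70). The integrin chains ITGA3 and ITGA6, which pair with CD151, were higher in A375, as CD151 was. The integrin chain ITGB1 was found in both lines, at 507 and 471 CPM in A375 and 226 and 220 CPM in Jurkat. ITGA3 was at 337 and 329 CPM in A375 and at 12.4 and 9.68 CPM in Jurkat, and ITGA6 was at 717 and 460 CPM against 13.4 and 33.5 CPM. Without the well with the most counts, ITGA3 in Jurkat was at 6.47 and 5.76 CPM and ITGA6 with kit #634413 at 8.03 CPM. PTGFRN, which binds CD9 and CD81 directly, was at 146 and 122 CPM in A375 and at 0 and 1.24 CPM in Jurkat, the latter all from 1 well. TIMP1, a ligand that binds CD63, was at 186 and 203 CPM against 0 and 0.191 CPM. Among the Jurkat genes, the integrin chain ITGA4 was at 1578 and 1131 CPM against 78.1 and 56.8 CPM, and CD2 at 127 and 145 CPM against 0 counts. CD4 was at 23.4 and 32.5 CPM against 2.09 and 0.0955 CPM. All 26 CD4 counts of A375 with kit #634413 lay in replicate 12, and CD4 in Jurkat with kit #634444 was at 21.2 CPM without replicate 3. IGSF8, another direct partner of CD9 and CD81, was higher in Jurkat with kit #634413 (log2 −1.95) and within 2-fold with kit #634444 (log2 −0.86). Without replicate 8 or 13 of A375 with kit #634444 it passed 2-fold there too (log2 −1.01 and −1.27). SDCBP and PDCD6IP, which act in exosome formation together with CD63, and ADAM10 were within 2-fold in both kits. CD47, the antigen stained on A375 cells, was higher in Jurkat, at 242 and 268 CPM against 92.0 and 101 CPM.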

How the data were processed

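Each deposited table holds 1 sorted cell. Per the labels and the methods, the authors trimmed paired reads with cutadapt and quantified Ensembl transcripts in the stranded mode of Kallisto 0.43.1 (hg38). The authors deposited expected counts (estimated counts, not normalized). Beside these, the authors deposited TPM values, in which counts are scaled by effective transcript length.

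Gene sums used GENCODE v44, which contained 195850 of the 200471 targets. CPM values were the summed counts of a group for each 1000000 of its protein-coding counts. These numbered 12462244 and 10465850 in A375 and 13177040 and 10448334 in Jurkat (kits #634413 and #634444). Genes needed 50 summed counts in 1 group. For calls and for alternatives on summed counts, a group under 3 counts was set to 3. Printed ratios of the main setting used this floor only for a group at 0. Since cells of 1 culture are not replicates, edgeR 4.0.16 was used only for TMM scaling. Intervals and ranks were computed with scipy 1.17.1. The procedure was run on simulated Poisson sums, with folds set only in genes with many counts. These sums held no variation between wells and no amplified reads. The simulation therefore checks the computation and not the width of the intervals or folds near the floor. Named genes were the members, the other family genes with at least 5 CPM in a group, the partners and the 2 genes most like each member. A partner gene that did not reach the count minimum is not reported here. Members and lists were chosen with earlier results of these data known. The alternatives were other denominators, log2 of mean or median TPM plus 1 over all or deeper wells, deeper wells alone, coding transcripts, other limits and leaving out each well.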

Additional observations from a re-analysis of the deposited data

How the results depend on the processing

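No paired analysis was possible because the wells of different groups are different cells that share no animal, donor or day in the labels, and no result comes from a test. The 4 members higher in A375 and the 3 higher in Jurkat kept these counts when each well was left out in turn, with another denominator, with TMM, with only deeper wells and with other count minimums. TPM was averaged over all wells, where the shallow A375 wells weigh as much as the others, and over the deeper wells alone, which was chosen after seeing the data. Over all wells, mean TPM lost TSPAN3 and median TPM lost TSPAN3 and CD81. Over the deeper wells, both lost CD81 and kept TSPAN3, and median TPM added TSPAN4 in A375. Protein-coding transcripts lost CD81, and a 4-fold limit lost TSPAN3 and CD81. No called member changed its direction. The number of members past the limit between kits was 1 with mean TPM (all or deeper wells), 4 at 1.5-fold and 0 at 4-fold, and 1 to 3 when wells were left out. Over all genes, those higher in A375 numbered 4499, and 2827 with mean TPM and 2037 with median TPM over all wells (3496 and 3466 over the deeper wells), 2930 at 4-fold and 2487 with 200 summed counts. Those higher in Jurkat numbered 2347, and 1563 with mean TPM and 1082 with median TPM over the deeper wells (2191 and 1829 over all wells) and 1081 at 4-fold. TMM shifted the median log2 ratio of all genes by −0.17 and −0.19, mean TPM over all wells by −0.33 and −0.31, and median TPM over the deeper wells by 0.37 and 0.16. The cause of these changes was not tested. Folds of CD9, CD53 and CD82 rest on few or no counts in 1 line, so their size is set by depth.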
